A study of Mus musculus with 6 samples.

Results

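The potassium channel genes of mouse epididymal white fat were taken as all probe sets that the platform annotation pairs with exactly 1 gene symbol starting with Kcn. There were 167 such probe sets among the 45101 on the array, and they stood for 84 of 18194 gene symbols. Of these genes 81 encode proteins in RefSeq and 3 are noncoding RNAs (Kcnq1ot1, Kcnmb4os1 and Kcnmb4os2). The arrays compared 3 wild type mice, labelled WT C57BL6;SJL, with 3 transgenic mice, labelled MUT, of the aP2-nSrebp1c Tg line on the same C57BL6;SJL background. All were males aged 10 weeks, and the controls were litter-matched. The labels do not say which mice shared a litter, so the main comparison did not take litter into account. The transgene expresses the nuclear form of the lipid synthesis factor SREBP-1c from the aP2 (Fabp4) promoter, which is active in fat cells and also in macrophages, and the labels call these mice lipodystrophic. The strain label of the transgenic mice is spelt in 3 ways, while the titles name 1 line. RNA of each mouse went to its own array, so that spread and p-values are those between mice.

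Potassium channels let potassium ions leave or enter cells and thereby set the resting membrane potential, which governs calcium entry, secretion and cell volume. Voltage-gated (Kv) channels open on depolarisation, inward rectifiers (Kir) and 2-pore-domain (K2P) channels carry background current near rest, and calcium-activated channels link calcium signals to potassium efflux. White fat is a mixed tissue in which adipocytes, macrophages, vascular smooth muscle and endothelium each carry their own channels. A bulk array cannot tell fewer cells of a type from less RNA per cell.

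The channel genes that fell are shown first by sequence, because Kcnj15, Kcns3 and Kcnk2 were the family members that passed the threshold as lower in transgenic fat on all 6 arrays. For each gene the 250 bases upstream of its farthest upstream RefSeq start (build GRCm38.p6) are given 5′ to 3′ on the strand of the gene, with E-box motifs (CANNTG, on both strands the same) in capitals. SREBP-1c binds some E-boxes as well as sterol response elements.
Kcnj15, chr16:95257308-95257557, plus strand: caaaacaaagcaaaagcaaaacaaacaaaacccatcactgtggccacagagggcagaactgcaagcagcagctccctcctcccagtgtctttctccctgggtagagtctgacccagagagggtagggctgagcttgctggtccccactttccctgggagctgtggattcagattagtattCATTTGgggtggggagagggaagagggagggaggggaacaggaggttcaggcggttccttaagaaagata
Kcns3, chr12:11150843-11151092, minus strand: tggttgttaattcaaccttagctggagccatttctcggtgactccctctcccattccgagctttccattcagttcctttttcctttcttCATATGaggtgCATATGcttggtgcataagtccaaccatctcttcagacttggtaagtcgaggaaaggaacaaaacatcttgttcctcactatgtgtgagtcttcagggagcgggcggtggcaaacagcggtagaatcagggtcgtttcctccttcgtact
Kcnk2, chr1:189402274-189402523, minus strand: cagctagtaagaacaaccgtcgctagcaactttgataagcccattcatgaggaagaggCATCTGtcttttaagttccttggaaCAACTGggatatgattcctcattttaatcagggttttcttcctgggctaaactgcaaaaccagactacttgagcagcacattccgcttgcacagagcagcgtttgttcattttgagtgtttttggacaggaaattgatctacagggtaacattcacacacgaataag
The Kcnj15 window held 1 E-box, and the windows of Kcns3 and Kcnk2 held 2 each. At least 1 E-box stands in 66.2% of the 32851 upstream windows of the same length in the RefSeq table, so a match sets these genes little apart from others. The sterol response element TCACNCCAC (both strands) was in 0 of these 3 windows and in 1.05% of all windows. The E-box form CACGTG was in 0 of the 3 and in 6.02% of all, and the nuclear receptor half-site AGGTCA, read on both strands, was in 0 of the 3 and in 14.0% of all. Kcnk2 has 4 listed starts and Kcns3 has 2, and which start is used in fat was not measured. The windows of the starts not shown held fewer E-boxes, 1, 1 and 0 for Kcnk2 and 1 for Kcns3. Of the 84 genes 64 had a listed window. Kcnd1, which rose, was not among them, so its upstream sequence was not examined.

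The deposited values are MAS5 signals, linear intensities in arbitrary units, and were compared as log2(signal + 16) with limma, with Benjamini-Hochberg adjustment of p-values across the 27023 probe sets fitted and a threshold of 0.05. Low probe sets had been left out, and 50 of the 167 members, from 39 of the 84 genes, were tested. The array of MUT replicate 2 stood apart: its median signal was 37.7 against 53.4 to 65.4 on the other arrays, and its 3′ to 5′ signal ratio for the actin control was 122, against 1.11 to 1.81 elsewhere. The 3′ to 5′ ratio of the Gapdh control was 55.9 on that array and 0.772 to 1.22 on the others. The ratio of the Pcx control split the arrays in another way: it was 14.1 for MUT replicate 2, 3.06 and 3.10 for WT replicate 3 and MUT replicate 1, and 40.6 to 52.0 for the other 3. Counts of members, partner genes and markers are also given without MUT replicate 2. The adipocyte markers Adipoq and Fabp4 were bright on every array, with signals of 4626 to 12188 and 12376 to 14121. Adipoq was lower in every MUT mouse than in any WT mouse, and counts for the whole adipocyte list are given below. The fat depot was taken from the labels.

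In transgenic fat the inward rectifier gene Kcnj15, the voltage-gated modifier gene Kcns3 and the 2-pore-domain gene Kcnk2 fell, and the voltage-gated gene Kcnd1 rose. These 4 were 10.3% of the 39 channel genes tested, where 3.77% of all 13112 genes tested were called (2.23% higher and 1.54% lower). By probe set, 5 of 50 members (10.0%) were called, 1 higher and 4 lower, against 2.97% of all (1.67% higher and 1.3% lower). The remaining 35 genes did not pass the test, and 45 genes were not tested. The median log2 fold change of the 39 genes was −0.01, beside −0.04 over all genes. Without MUT replicate 2, 9 of the 39 genes were called, 4 higher and 5 lower, which is 23.1% against 15.4% of all genes (8.04% higher and 7.33% lower), and 11 of the 50 probe sets, 5 higher and 6 lower, against 13.2% (6.96% and 6.23%). Groups did not overlap for 13 of the 39 genes (33.3%), beside 30.4% of all genes tested, and for 15 of the 50 probe sets, beside 27.2%.

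**Figure D1:**
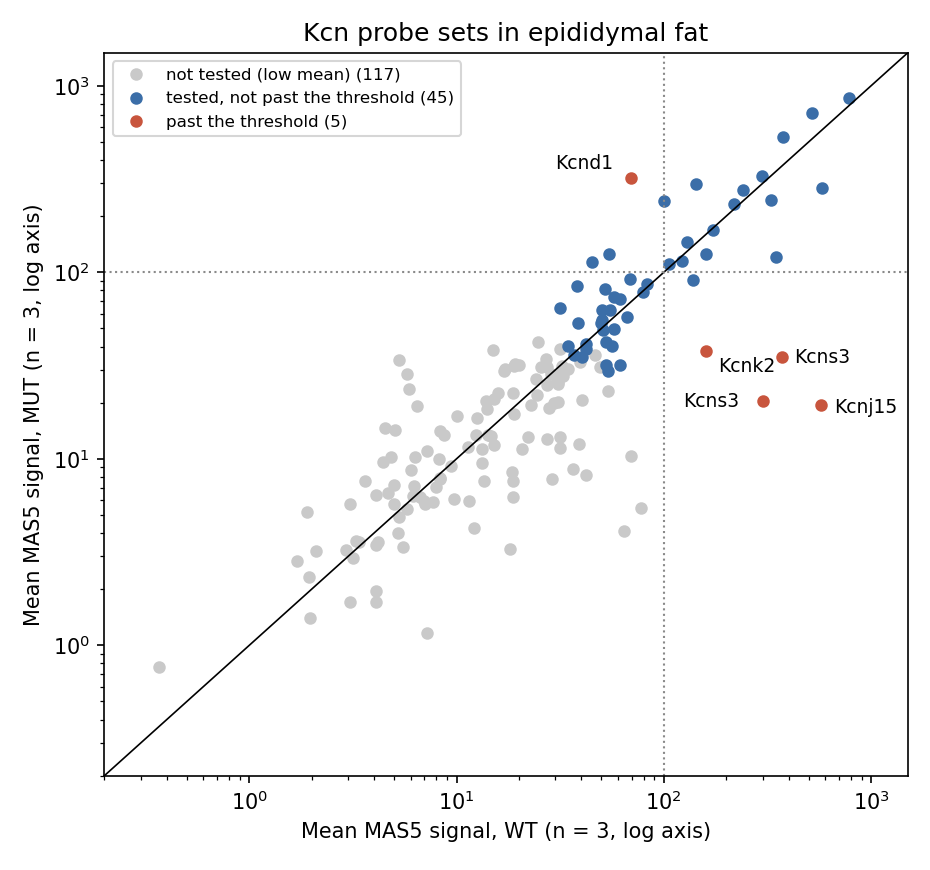
Mean MAS5 signal of every Kcn probe set in WT (x axis) and MUT (y axis) fat, 3 mice each, on log axes in arbitrary units, with dotted lines at 100 and a diagonal of equal signal. The 5 probe sets past the threshold are named; Kcnj15, Kcns3 and Kcnk2 lie below the diagonal and Kcnd1 above it, and 117 probe sets were too dim to be tested.

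A mean signal over 100 in at least 1 group was reached by 19 of the 84 genes. They were the voltage-gated pore subunit genes Kcna5, Kcna7, Kcnd1, Kcnd3, Kcnh2, Kcnh3 and Kcns3, the inward rectifier genes Kcnj8, Kcnj11, Kcnj14 and Kcnj15, the 2-pore-domain genes Kcnk2, Kcnk3 and Kcnk6, the calcium-activated gene Kcnn4, the auxiliary subunit genes Kcnab1, Kcnab2 and Kcne4, and the noncoding Kcnq1ot1. In 12 of them both groups were over 100. Kcnj15, Kcns3, Kcnk2 and Kcnd3 (4 genes) were over it in WT fat only, and Kcnd1, Kcnab2 and Kcnj14 (3 genes) in MUT fat only. Of the genes over it in a single group, Kcnab2 had a WT mean of 99.8 and Kcnd3 a MUT mean of 91.3, both close to the limit. Just inside this limit were Kcnj14 with a highest group mean of 113.6 and Kcnh2 with 122.2, and just outside it Kcnj3 with 92.3 and Kcnk13 with 86.4. The signal of a probe set also depends on its probes, so levels are not ranked between channels.

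Among the 6 inward rectifier genes tested, 1 was called lower and 0 higher by limma, and 1 had an unadjusted p under 0.05. Kcnj15 encodes Kir4.2, an inward rectifier best known from epithelia. Its signals were 628, 547 and 556 in WT mice and 17.2, 21.2 and 20.0 in MUT mice. Every MUT value was far below every WT value, and the value of MUT replicate 2 lay close to those of the other MUT mice. The fall was 16.7-fold on the scale of signal + 16 (log2 fold change −4.06 ± 0.21 SE, adjusted p = 0.000865, n = 3 per group). Since the MUT mean of 19.5 ± 2.1 (SD, n = 3) is near the offset of 16, the size rests on that offset: the log2 fold change was −4.82 with an offset of 1 and −2.94 with 64. The call stood with each array left out in turn, with an adjusted p of at most 0.0179.

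Both other Kcnj15 probe sets were too dim for the test. One of them (1450185_a_at) had signals of 55.7, 53.2 and 124 in WT and 5.0, 9.1 and 2.3 in MUT mice, and the other (1443054_at) 59.0, 31.8 and 70.4 against 28.4, 23.7 and 16.9. In both the groups did not overlap and MUT was lower. In a limma fit without the filter, where 1.55% of all probe sets were called (0.846% higher and 0.702% lower), the first passed the threshold (−2.06 ± 0.33 SE, adjusted p = 0.0389) and the second did not (−0.81, adjusted p = 0.331). Kcnj6, the inward rectifier gene next to Kcnj15 in RefSeq, differed by 0.40 ± 0.38 SE on the log2 scale (adjusted p = 0.624).

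The pore genes of ATP-sensitive potassium channels, which close when cellular ATP is high, did not pass the test. Kcnj11, which encodes Kir6.2, had signals of 865, 764 and 726 in WT and 736, 506 and 1340 in MUT mice. The MUT values spanned those of WT, and the log2 fold change was 0.02 ± 0.37 SE (adjusted p = 0.985). Kcnj8, which encodes Kir6.1 of vascular smooth muscle and pericytes, had 338, 352 and 304 in WT and 237, 200 and 293 in MUT mice. All MUT values were lower, but the log2 difference of −0.43 ± 0.24 SE missed the threshold (adjusted p = 0.436). Their sulfonylurea receptor partners lie next to them in RefSeq, Abcc8 beside Kcnj11 and Abcc9 beside Kcnj8. On the log2 scale Abcc8 differed by 0.14 ± 0.26 SE (adjusted p = 0.814). Abcc9 differed by −0.12 ± 0.25 SE (adjusted p = 0.826).

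Kcnj14, which encodes Kir2.4, had signals of 63.0, 35.9 and 36.2 in WT and 165, 35.2 and 141 in MUT mice. MUT replicate 2 lay at the WT level and the other MUT mice above it. On all arrays the log2 fold change was 0.92 ± 0.50 SE (adjusted p = 0.423), and without MUT replicate 2 Kcnj14 rose (1.49 ± 0.26 SE, adjusted p = 0.00535). The 9 inward rectifier genes left out by the filter included Kcnj2 and Kcnj10, whose signals were 1.5 to 12.2 and 13.7 to 47.0 over the 6 arrays.

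**Figure D2:**
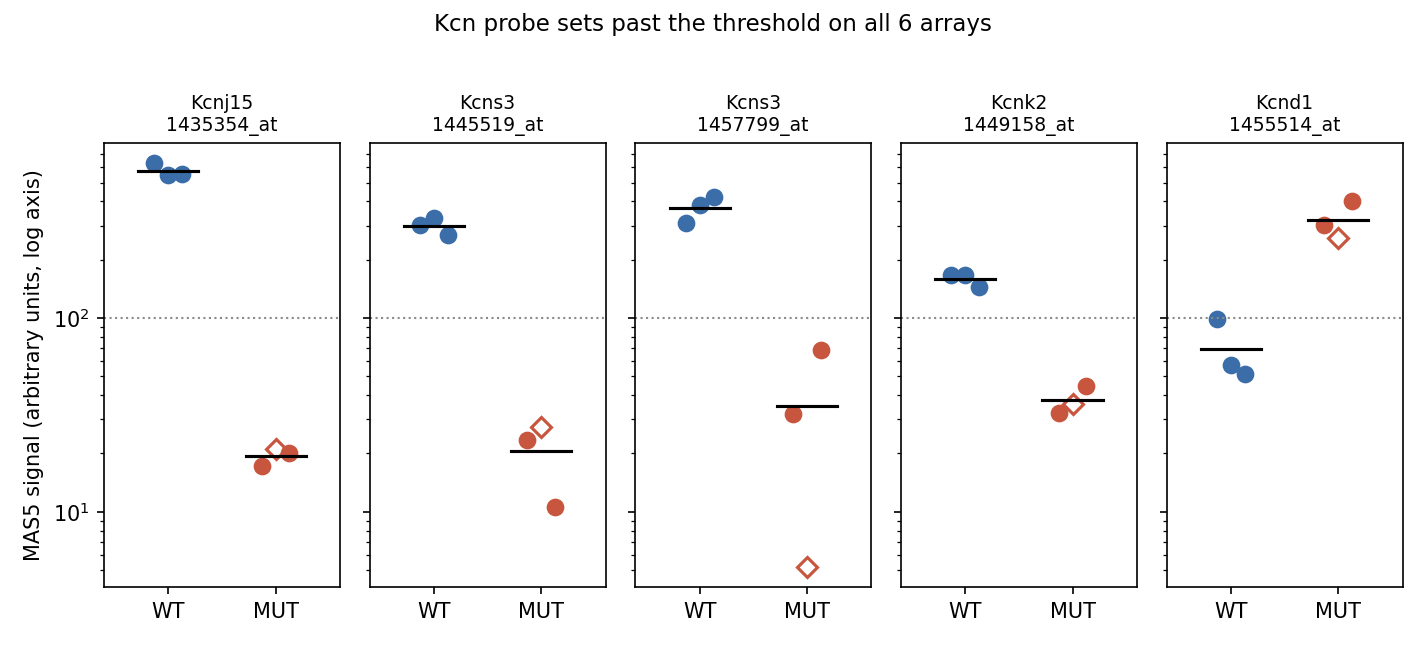
MAS5 signal (arbitrary units, log axis) on each array for the 5 Kcn probe sets past the threshold, with WT in blue and MUT in red, a black line at each group mean (n = 3) and a dotted line at 100; the open diamond is MUT replicate 2. In every panel the groups do not overlap, with MUT lower for Kcnj15, Kcns3 and Kcnk2 and higher for Kcnd1.

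Of 16 tested genes for voltage-gated pore subunits, Kcns3 fell, Kcnd1 rose and 14 did not pass the test. Kcns3 encodes Kv9.3, a subunit that forms no channel alone and modifies those of the Kv2 family. Its probe set 1457799_at had signals of 310, 382 and 419 in WT and 31.9, 5.2 and 68.5 in MUT mice, and 1445519_at had 301, 330 and 268 against 23.5, 27.3 and 10.6. Both probe sets were lower in every MUT mouse than in any WT mouse. The first fell 8.70-fold, or −3.12 ± 0.49 SE on the log2 scale (adjusted p = 0.0242). The second fell 8.81-fold, or −3.14 ± 0.26 SE (adjusted p = 0.00324). These sizes too rest on the offset, since the MUT signals are dim: with an offset of 1 the log2 fold changes were −3.93 (adjusted p = 0.0745, past the threshold no longer) and −3.90 (adjusted p = 0.00754), and with 64 they were −2.17 and −2.11. For 1457799_at, which stands for the gene, the adjusted p rose above the threshold, to at most 0.136, without WT replicate 1, 2 or 3 or MUT replicate 1, and was 0.000292 without MUT replicate 2. The other probe set passed with each array left out (adjusted p at most 0.0357).

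Kcnd1 encodes Kv4.1, a pore subunit of rapidly inactivating A-type current. The signals of its probe set 1455514_at were 98.5, 57.2 and 51.7 in WT and 304, 258 and 402 in MUT mice. Every MUT mouse was above every WT mouse, MUT replicate 2 included. The rise was 4.01-fold (log2 fold change 2.0 ± 0.30 SE, adjusted p = 0.0213). It was 2.14 without MUT replicate 2 (adjusted p = 0.00087), and the adjusted p was 0.0591 to 0.146 when any 1 of the other 5 arrays was left out. A second probe set had signals of 50, 65.1 and 48.8 in WT and 116, 104 and 156 in MUT mice, also without overlap (0.99 ± 0.24 SE, adjusted p = 0.0924). The third had 43.6, 34.5 and 35.9 against 179, 25.9 and 50, with a single high MUT mouse (0.60 ± 0.54 SE, adjusted p = 0.61).

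Kcna5, which encodes Kv1.5 of vascular smooth muscle and heart, had signals of 606, 492 and 634 in WT and 253, 196 and 398 in MUT mice. All MUT values were lower. The log2 fold change of −1.04 ± 0.31 SE did not pass the threshold (adjusted p = 0.161), but without MUT replicate 2 Kcna5 fell (−0.82 ± 0.23 SE, adjusted p = 0.0459). That call was lost in limma without both that array and the filter (adjusted p = 0.0885). It was kept without that array and with quantile normalization (−0.84, adjusted p = 0.0145). Kcnd3, a relative of Kcnd1 that encodes Kv4.3, had 146, 149 and 122 in WT and 80.8, 92.0 and 101 in MUT mice. It was lower in every MUT mouse without passing the test (−0.53 ± 0.21 SE, adjusted p = 0.288).

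The ether-a-go-go relative Kcnh3 had signals of 492, 501 and 559 in WT and 772, 408 and 960 in MUT mice on its brightest probe set. MUT replicate 2 was below WT and the other MUT mice above it. The log2 fold change was 0.37 ± 0.35 SE (adjusted p = 0.623). Leaving out MUT replicate 2 gave a rise of 0.72 ± 0.18 SE (adjusted p = 0.0312). Both other tested Kcnh3 probe sets had smaller values without that array, 0.36 (adjusted p = 0.386) and 0.23 (adjusted p = 0.651). Kcnh2, which encodes the cardiac channel hERG, had −0.08 ± 0.33 SE (adjusted p = 0.923), and 0.15 after quantile normalization. Kcna7 had −0.75 ± 0.77 SE (adjusted p = 0.653) on all arrays and 0.19 (adjusted p = 0.704) without MUT replicate 2, whose signal of 11.9 stood against 162 and 201 in the other MUT mice.

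Of 5 tested 2-pore-domain genes, Kcnk2 was the 1 called, and it fell; 2 of the 5 had an unadjusted p under 0.05 in limma. Kcnk2 encodes TREK-1, a background channel that opens with membrane stretch and polyunsaturated fatty acids. Its signals were 168, 167 and 144 in WT and 32.5, 35.9 and 44.5 in MUT mice. The MUT mice lay close together and well below WT. The fall was 3.28-fold (log2 fold change −1.71 ± 0.21 SE, adjusted p = 0.00995). That p was 0.0633 to 0.0892 without WT replicate 1, 2 or 3 and 0.000986 without MUT replicate 2.

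Kcnk3 encodes TASK-1, an acid-sensitive background channel described in smooth muscle and brown fat. Its signals were 423, 338 and 283 in WT and 132, 50.4 and 182 in MUT mice. Every MUT value was lower, and the lowest was that of MUT replicate 2. The log2 fold change was −1.53 ± 0.43 SE (adjusted p = 0.139), and without MUT replicate 2 Kcnk3 fell (−1.07 ± 0.23 SE, adjusted p = 0.0157). Kcnk6, which encodes TWIK-2, had 423, 352 and 353 in WT and 401, 630 and 557 in MUT mice, with overlapping groups (0.46 ± 0.26 SE, adjusted p = 0.448).

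**Figure D3:**
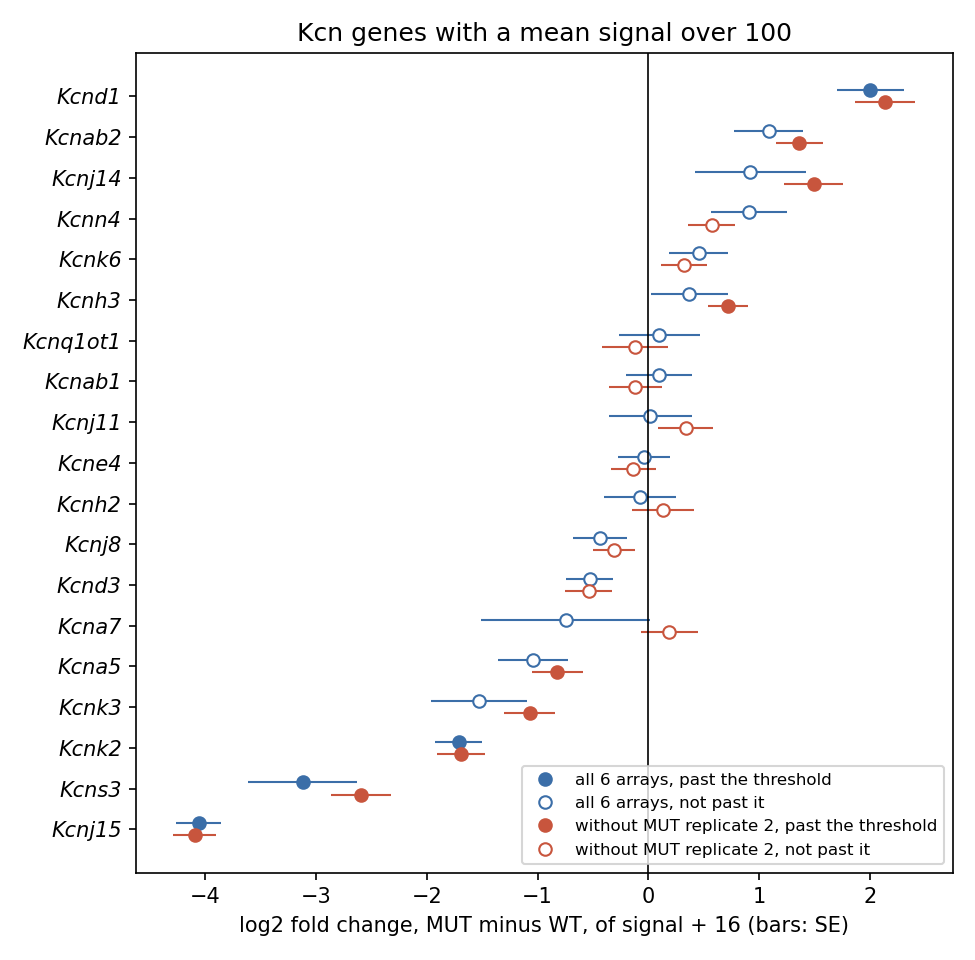
Log2 fold change of signal + 16 (MUT minus WT, x axis) for the 19 Kcn genes with a mean signal over 100 in either group, each by its brightest tested probe set, with bars of 1 SE; blue is all 6 arrays, red is without MUT replicate 2, and filled points passed the adjusted p threshold. Kcnj15, Kcns3, Kcnk2 and Kcnd1 are filled in both fits, and Kcnab2, Kcnj14, Kcnh3, Kcna5 and Kcnk3 only without that array.

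Neither the auxiliary subunits (7 tested genes) nor the calcium- or sodium-activated channels (4 tested) had a gene past the threshold in limma (0 in each); 1 of the former and 2 of the latter had an unadjusted p under 0.05. Kcnab2, which encodes the cytoplasmic Kvβ2 subunit of Kv1 channels, had signals of 107, 99.9 and 92.8 in WT and 244, 151 and 326 in MUT mice. The WT mice were close together and every MUT mouse was higher. The log2 fold change was 1.09 ± 0.31 SE (adjusted p = 0.14), and Kcnab2 rose without MUT replicate 2 (1.37 ± 0.21 SE, adjusted p = 0.00251) and after quantile normalization of all 6 arrays (1.28, adjusted p = 0.0262). Kcnab1, which encodes Kvβ1, had 0.10 ± 0.30 SE (adjusted p = 0.889). Kcne4, an inhibitory subunit of Kv channels, had −0.04 ± 0.23 SE (adjusted p = 0.943). As the mean over its 2 tested probe sets Kcnab1 had −0.31 in limma on all arrays (adjusted p = 0.501), so the direction depended on the probe set used. Without MUT replicate 2 Kcnab1 had −0.12, and after quantile normalization Kcne4 had 0.14, so neither direction held.

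Kcnn4 encodes KCa3.1, the intermediate-conductance calcium-activated channel of lymphocytes and macrophages. Its probe set 1435945_a_at had signals of 167, 144 and 117 in WT and 213, 455 and 223 in MUT mice. All MUT values were higher, with MUT replicate 2 the highest (0.91 ± 0.35 SE, adjusted p = 0.259). The second Kcnn4 probe set had 54.7, 63.0 and 46.7 in WT and 84.0, 5.6 and 98.6 in MUT mice. On it MUT replicate 2 was the lowest of all arrays, and the log2 fold change was −0.17 ± 0.62 SE (adjusted p = 0.909). Without that array both probe sets had similar values, 0.57 (adjusted p = 0.117) and 0.60 (adjusted p = 0.135), neither past the threshold. Kcnma1, the pore gene of the large-conductance channel of smooth muscle, had 1 of 5 probe sets tested, with signals of 47.3, 53.1 and 57.2 in WT and 30.5, 12.9 and 52.2 in MUT mice (−0.60 ± 0.34 SE, adjusted p = 0.431).

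**Figure D4:**
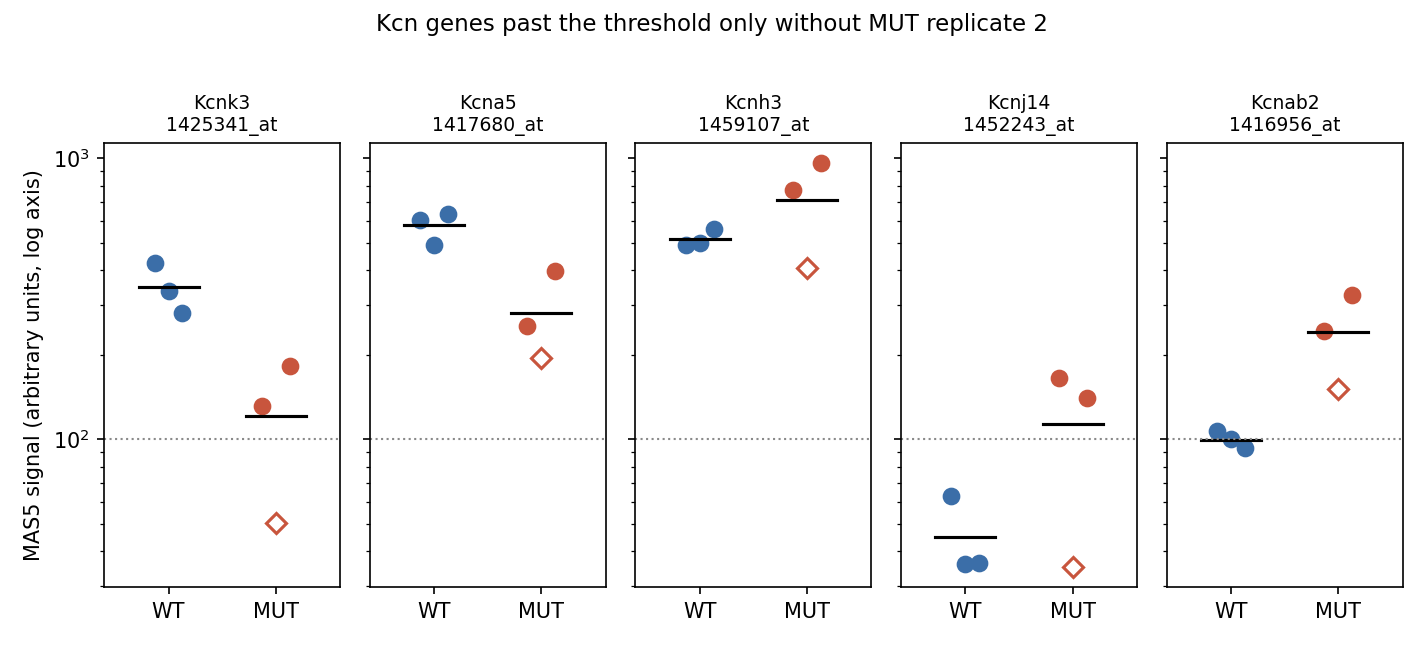
MAS5 signal (arbitrary units, log axis) on each array for the 5 Kcn genes that passed the threshold only without MUT replicate 2 (open diamond), with WT in blue, MUT in red, a black line at each mean of 3 mice and a dotted line at 100. Groups do not overlap for Kcnk3, Kcna5 and Kcnab2, while for Kcnh3 and Kcnj14 the diamond lies below the lowest WT value.

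The noncoding Kcnq1ot1, an imprinted RNA transcribed antisense to Kcnq1, was the only tested member of the 3 noncoding ones and was not called (0 of 1, with 0 at an unadjusted p under 0.05). Its brightest probe set had signals of 262, 264 and 199 in WT and 148, 359 and 320 in MUT mice, with overlap (0.10 ± 0.37 SE, adjusted p = 0.906). Kcnq1 itself had −0.04 ± 0.34 SE (adjusted p = 0.965), and 0.14 after quantile normalization.

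Many members were dim. The highest group mean of the 84 genes had a median of 37.9, and 45 genes had no tested probe set. In the fit without the filter 7 of 167 members were called, where the share called over all probe sets was 1.55%. They were the 5 above, the Kcnj15 probe set 1450185_a_at and 1 probe set of Kcnc1, a Kv3 gene of fast-firing neurons. The latter (1456965_at) had signals of 39.7, 48.0 and 38.5 in WT and 7.1, 4.3 and 13.2 in MUT mice (−1.28 ± 0.22 SE, adjusted p = 0.0462). Its groups did not overlap, but a brighter Kcnc1 probe set (1423559_at) had 0.00 ± 0.51 SE in the fit with the filter. Kcne1l, which encodes a small auxiliary subunit, had 94.1, 28 and 71.6 in WT and 2.6, 1.3 and 8.4 in MUT mice. It was lower in every MUT mouse and missed the threshold without the filter (−1.92 ± 0.37 SE, adjusted p = 0.0661). Without both the filter and MUT replicate 2, 13 of the 167 members were called. The share called over all probe sets was then 5.83% (3.13% higher and 2.7% lower).

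Genes that work beside potassium channels (sulfonylurea receptors, accessory subunits of other families, sodium pump subunits, cation chloride cotransporters and their kinases, and pacemaker channels) formed a list of 40, of which 33 were on the array and 26 were tested. None (0) passed the threshold in limma, 6 had an unadjusted p under 0.05, and the median log2 fold change was −0.22. Without MUT replicate 2, 1 rose and 3 fell, 15.4% of the 26, the same share as that of all genes called. Fxyd2, a regulator of the sodium pump, had signals of 311, 308 and 290 in WT and 83.2, 39.3 and 152 in MUT mice (−1.71 ± 0.41 SE, adjusted p = 0.0880). It was lower in every MUT mouse and fell without MUT replicate 2 (−1.31, adjusted p = 0.00727). Also without that array Stk39, a kinase of cation chloride cotransporters, fell (−0.93, adjusted p = 0.0204), as did the cotransporter gene Slc12a2 (−0.78, adjusted p = 0.0260). The pump subunit gene Atp1b3 rose (0.66, adjusted p = 0.0286).

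Markers of several cell types also differed between the groups. Their counts are read against the 3.77% of all genes called on all arrays and the 15.4% called without MUT replicate 2. Of 10 tested adipocyte markers 2 fell and 0 rose, and 7 fell without MUT replicate 2. Their summed signal was 71445 to 79547 in WT and 31889 to 50043 in MUT mice. Of 5 mesothelial markers 2 fell and 0 rose, 4 fell without that array, and the sums were 4324 to 5034 in WT and 520 to 1721 in MUT mice. Of 7 endothelial markers 0 passed the threshold in limma, with 1 at an unadjusted p under 0.05, and 4 fell without that array. Their sums were 6523 to 7078 in WT and 1855 to 5182 in MUT mice. In the adipocyte, mesothelial and endothelial lists the lowest MUT sum was that of MUT replicate 2. Of 12 macrophage markers 1 rose and 0 fell, and without that array 6 rose and 1 fell. Their sums were 18955 to 22219 in WT and 27422 to 36111 in MUT mice.

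The 8 smooth muscle and pericyte markers did not move one way. On all arrays 1 fell and 0 rose, with a median log2 fold change of −0.26, and without MUT replicate 2 there were 2 that rose and 2 that fell, with a median of 0.15. Their summed signal, 9615 to 11435 in WT and 6974 to 7920 in MUT mice, was carried mostly by Acta2 and Rgs5. Here too the lowest MUT sum was that of MUT replicate 2. Rgs5, a pericyte gene, fell (−1.27 ± 0.23 SE, adjusted p = 0.0393), with signals of 3817 to 4728 in WT and 1336 to 2145 in MUT mice. Pdgfrb, a receptor of pericytes and other stromal cells, was higher in every MUT mouse, with signals of 555 to 655 in WT and 1011 to 1705 in MUT mice (1.03 ± 0.28 SE, adjusted p = 0.126), and rose without MUT replicate 2 (0.78, adjusted p = 0.0167).

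Of 10 tested T, B and mast cell markers 2 rose and 0 fell, and 4 rose without MUT replicate 2. Of 6 stromal markers 1 fell and 0 rose, and 2 fell without it. In limma none (0) of 3 tested Schwann cell and nerve, 2 epididymis and testis, 2 skeletal muscle or 2 brown fat markers passed, with 1, 1, 1 and 0 at an unadjusted p under 0.05. Without that array 1 Schwann cell and nerve marker and 1 brown fat marker (Cidea) rose and 1 skeletal muscle marker fell. Ucp1, also on the brown fat list, was too dim to be tested, with signals of 2.5 to 7.1 over the 6 arrays. In the adipocyte, mesothelial, endothelial, macrophage and smooth muscle lists no marker on the array was at 0, and the summed signals of the groups did not overlap. Sums did not overlap either for T, B and mast cell markers, with 1007 to 1154 in WT and 1947 to 2126 in MUT mice. The same held for skeletal muscle markers, with 494.5 to 1188 in WT and 120 to 339 in MUT mice. In the stromal, Schwann cell and nerve, epididymis and testis, and brown fat lists the sums overlapped. The part of these cell types in the channel results was not tested.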

How the data were processed

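Total RNA of epididymal fat, 1 mouse per array, was measured on Affymetrix MOE430v2.0 arrays. The deposited values are linear signal intensities that the authors computed by MAS5, a method named in the submitters' processing notes and recorded per the labels. Its version, scaling target and detection calls are not stated in the labels or headers, so no bound was set on a fold against a dim signal. The platform table paired 34958 of 45101 probe sets with 1 gene, 932 with several and 9211 with none, and all 84 Kcn symbols matched RefSeq. After leaving out 64 control probe sets and then the 40% with the lowest mean log2(signal + 16) over the 6 arrays, 27023 were fitted with lmFit and eBayes (trend) in limma 3.58.1 under R 4.3.3, two-sided, with no further normalization; pandas 2.3.3 and matplotlib 3.10.9 made tables and plots. The code was tested on simulated data. Each gene was represented by the brightest probe set tested. Every Kcn gene past the threshold or over a mean signal of 100 was to be named. Members, gene lists and tests were chosen with earlier results of these data known. Alternatives, 19 in all, were other offsets, filters, normalizations, priors, array weights, blocks, means over probe sets, and each array left out. Of columns of other samples there were 0. The number of arrays limits the precision.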

Additional observations from a re-analysis of the deposited data

How the results depend on the processing

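Kcnj15 kept its direction and its call under all 19 alternatives. Kcnd1, Kcnk2 and Kcns3 kept their directions under every alternative that gave a value, and lost the call in 7 of 19, 4 of 18 and 5 of 19; a filter on the lowest 60% left Kcnk2 out. Leaving out 1 array gave 1 to 9 Kcn genes past the threshold (4 on all arrays), 2 to 11 Kcn probe sets (5), 0 to 4 partner genes (0) and 141 to 3565 probe sets of the whole array (802); the Kcn gene count was 1 without WT replicate 1, 2 or 3, 2 without MUT replicate 1 and 9 without MUT replicate 2. The 60% filter gave 3 Kcn probe sets. Array weights gave 8 Kcn genes, 10 Kcn probe sets, 4 partners and 3359 probe sets in all. Without MUT replicate 2, quantile normalization gave 9, 11, 6 and 4953, and no filter, an alternative chosen after seeing the data, gave 10, 13, 2 and 2626. Quantile normalization or median centring of all arrays gave 1 partner each. A minimum signal of 50 or 200 in place of 100 gave 36 or 12 genes. The labels number the mice 1 to 3 in both groups, and deviations of same-numbered mice correlated at −0.37, 0.09 and −0.05. With 3 mice per group and MUT replicate 2 apart, these values cannot tell whether the numbers pair the mice. A replicate block gave 2 Kcn genes, 3 Kcn probe sets and 341 probe sets in all. A block for the class of the Pcx control ratio, also chosen after seeing the data, kept each count within 1.5 times.

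Among the 19 genes over a mean signal of 100, the log2 fold change of 6 turned, and these 6 were not called in any fit run; dimmer genes are not covered here. Kcna7 had −0.75 on all arrays and −1.29 to 0.19 with 1 array left out, 0.25 with array weights, 0.18 without MUT replicate 2 and with quantile normalization, 0.19 without MUT replicate 2 and with no filter. Kcnab1 had 0.10 on all arrays and −0.12 to 0.37 with 1 array left out, −0.31 with the mean over its tested probe sets, −0.16 without MUT replicate 2 and with quantile normalization, −0.12 without MUT replicate 2 and with no filter. Kcne4 had −0.04 on all arrays and −0.13 to 0.10 with 1 array left out, 0.14 with quantile normalization, 0.078 with median centring. Kcnh2 had −0.08 on all arrays and −0.28 to 0.17 with 1 array left out, 0.15 with quantile normalization, 0.044 with median centring, 0.086 with array weights, 0.13 without MUT replicate 2 and with quantile normalization, 0.13 without MUT replicate 2 and with no filter. Kcnj11 had 0.02 on all arrays and −0.35 to 0.34 with 1 array left out. Kcnq1ot1 had 0.10 on all arrays and −0.12 to 0.47 with 1 array left out, −0.15 without MUT replicate 2 and with quantile normalization, −0.12 without MUT replicate 2 and with no filter. The causes of these changes were not tested.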
